A study of Mus musculus with 36 samples.

Results

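The IL-12 family cytokines IL-12, IL-23, IL-27 and IL-35 are each built from an alpha subunit and a beta subunit encoded by separate genes. All genes named Il12a, Il12b, Il23a, Il27 or Ebi3 were taken from the count table, and all 5 were found among its 54532 genes. Their transcripts were examined in 36 RNA-seq libraries of bone marrow–derived macrophages (BMDMs) treated with CCM, a small molecule that binds the PASB domain of BMAL1, with and without lipopolysaccharide (LPS). Marrow of female C57BL/6 mice aged 13–17 weeks was cultured with MCSF for 7 days. KO BMDMs carried LysM-Cre with floxed Bmal1, and WT BMDMs came from flox/flox littermates without Cre. Each genotype was given DMSO vehicle, 100 µM CCM, 100 nM LPS or 100 nM LPS with 100 µM CCM for 6 h, with 3 WT and 6 KO libraries for each treatment. Library totals ran from 13469262 to 28288923 counts. The labels do not state that replicates are separate animals, although the publication counts them as mice. If some replicates came from 1 animal, the p values would measure spread that is technical in part. Cre is driven by the LysM promoter in the KO cells, deletion in each culture was not measured here, and a control with Cre alone was absent.

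LPS is sensed through TLR4, CD14 and MD-2, and signals through MYD88 and TRIF to NF-κB and IRF transcription factors that bind the promoters of these cytokine genes. The p40 subunit made from Il12b pairs with p35 from Il12a to form IL-12, which drives T helper 1 responses, or with p19 from Il23a to form IL-23, which sustains T helper 17 cells. The p28 subunit from Il27 pairs with EBI3 to form IL-27, which restrains several T cell responses, and EBI3 with p35 forms IL-35.

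The 250 bases before the annotated transcription start were read for the members with a promoter entry. Such stretches can hold sites for LPS-activated factors, and sites farther away were not read. Entries were present for 3 of the 5 members, with 2 starts for Il12a, and none was present for Il23a or Il27. The sequences are from RefSeq transcription starts on GRCm38.p6, all on the plus strand, at chr3:68690394-68690643 and chr3:68691174-68691423 for Il12a, chr11:44399813-44400062 for Il12b and chr17:55952373-55952622 for Ebi3. Capitals mark matches to a C/EBP motif (TTGCAA) or a κB motif (GGG and CC separated by 5 bases of any kind), read on both strands.
Il12a: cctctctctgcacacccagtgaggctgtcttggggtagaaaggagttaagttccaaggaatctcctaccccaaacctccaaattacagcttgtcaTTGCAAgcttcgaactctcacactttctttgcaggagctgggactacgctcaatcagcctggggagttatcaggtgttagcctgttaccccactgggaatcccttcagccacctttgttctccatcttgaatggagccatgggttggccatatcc
Il12a second start: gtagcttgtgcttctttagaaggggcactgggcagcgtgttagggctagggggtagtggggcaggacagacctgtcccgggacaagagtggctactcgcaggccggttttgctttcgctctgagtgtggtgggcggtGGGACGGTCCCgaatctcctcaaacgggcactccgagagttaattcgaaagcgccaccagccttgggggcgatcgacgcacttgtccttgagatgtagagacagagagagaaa
Il12b: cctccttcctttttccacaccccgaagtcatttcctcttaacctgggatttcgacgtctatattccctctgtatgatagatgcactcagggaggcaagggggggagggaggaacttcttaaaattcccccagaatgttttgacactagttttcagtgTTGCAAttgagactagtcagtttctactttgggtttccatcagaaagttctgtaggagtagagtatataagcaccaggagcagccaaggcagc
Ebi3: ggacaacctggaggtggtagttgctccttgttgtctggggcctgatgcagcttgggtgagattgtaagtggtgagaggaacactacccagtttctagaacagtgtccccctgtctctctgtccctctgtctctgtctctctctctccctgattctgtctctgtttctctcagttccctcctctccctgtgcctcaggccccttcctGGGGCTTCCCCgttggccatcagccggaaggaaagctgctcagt
A C/EBP match lay 155 to 150 bases before the Il12a start and 93 to 88 bases before the Il12b start. At least 1 such match was held by 5.339% of 32851 promoters. This motif was chosen after the promoters had been read, so the share cannot serve as a test of enrichment. Overlapping κB matches on the 2 strands lay between 113 and 103 bases before the second Il12a start and between 44 and 34 bases before the Ebi3 start. The Il12b sequence and that of the first Il12a start had no κB match. The κB motif was met in 45.801% of all promoters. The BMAL1 E-box (CACGTG, in 6.021% of promoters) and an interferon-response motif (TTTC, 2 bases of any kind, TTTC, in 2.977%) had no match in any of the 4 sequences. A match describes the sequence only, and binding was not measured.

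The macrophage label was checked against Adgre1, Csf1r, Cd68, Mertk, Fcgr1, Itgam and Lyz2. All 7 were detected in each of the 36 libraries, with summed levels of 11236 to 19952 CPM (counts scaled to library size). The sum split by genotype, at 15755 to 19188 CPM in the 12 WT libraries and 11236 to 14492 CPM in the 20 KO libraries other than those of replicate 2. KO replicate 2 held 16888 to 19952 CPM, within the WT range with vehicle and CCM. It lay above every WT library with LPS (16888 CPM, WT 15755 to 16396) and LPS+CCM (19952 CPM, WT 16510 to 16797). The split lay in Lyz2, the locus into which Cre is inserted in LysM-Cre mice, at 10418 to 15054 CPM in WT, 5913 to 10186 CPM in the other KO libraries and 11049 to 14663 CPM in KO replicate 2. The other 6 markers overlapped, at 4100 to 5643 CPM, 3035 to 6108 CPM and 4267 to 5840 CPM. By Lyz2, KO replicate 2 thus lay within or above the WT range of each treatment (14663 CPM with LPS+CCM, WT 10867 to 11320). This bears on its KO label, and whether it carried Cre was not measured. The main comparisons of members that involve KO are therefore also given without replicate 2, and the subunit ratios are not. Summed fibroblast markers were 271 to 1449 CPM and neutrophil markers 261 to 976 CPM. Markers of dendritic, T and NK, B and erythroid cells each summed to under 35 CPM.

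Arntl, which encodes BMAL1, is the gene targeted in the KO. Its count over the whole gene does not measure the deleted part, so it checks nothing about the knockout. WT libraries held 7.27, 8.61 and 9.76 CPM of Arntl with vehicle, 9.13, 8.55 and 11.1 with CCM alone, 10.2, 8.02 and 9.30 with LPS alone, and 12.9, 11.5 and 12.5 with LPS+CCM. KO libraries 1 to 6 held 7.59, 7.74, 6.43, 7.74, 7.60 and 2.97 CPM with vehicle and 6.44, 10.7, 7.40, 7.18, 8.04 and 5.01 with CCM. With LPS the KO libraries held 6.39, 9.03, 6.67, 8.19, 7.71 and 2.13 CPM, and with LPS+CCM 7.22, 9.32, 6.72, 7.34, 4.53 and 3.94. KO replicate 6 was the lowest of its group in all 4 treatments, and replicate 2 was the highest of its group with CCM, LPS and LPS+CCM. Under LPS, CCM raised Arntl in WT (log2 fold change 0.43, edgeR adjusted p = 0.0441, the 3 LPS+CCM libraries above the 3 LPS libraries) and not in KO (-0.06, edgeR adjusted p = 0.960). The edgeR interaction of genotype with CCM for Arntl was -0.47 (adjusted p = 1), so a difference between genotypes was not shown.

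Il12b, the shared p40 subunit, was nearly silent in vehicle-treated BMDMs and became an abundant transcript with LPS. WT libraries held 0.0367, 0 and 0.179 CPM with vehicle and 679, 645 and 379 CPM with LPS. KO libraries held 0.0466 to 4.09 CPM with vehicle (median 0.172) and 115 to 672 CPM with LPS (median 390). Every LPS library lay far above every vehicle library in both genotypes.

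Il12a, the p35 subunit, followed the same course at a lower level. WT libraries held 0.257, 0.0441 and 0.149 CPM with vehicle and 66.0, 69.2 and 43.9 CPM with LPS. KO libraries held 0.0466 to 0.756 CPM with vehicle (median 0.139) and 34.2 to 67.4 CPM with LPS (median 46.9), again without overlap.

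Il23a, the p19 subunit, was the least abundant member after LPS. It was found at 0, 0 and 2 counts in the WT vehicle libraries and at 51, 50 and 49 counts (3.01, 2.16 and 1.96 CPM) with LPS. KO libraries held 0 to 2 counts with vehicle (median 0 CPM) and 0.838 to 2.88 CPM with LPS (median 1.35), and the groups did not overlap.

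Il27, the p28 subunit, was low yet countable before stimulation. WT libraries held 1.07, 1.02 and 1.04 CPM with vehicle and 333, 287 and 257 CPM with LPS. KO libraries held 0.602 to 2.45 CPM with vehicle (median 1.38) and 210 to 489 CPM with LPS (median 291), with every LPS library above every vehicle library.

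Ebi3, the beta subunit of IL-27 and IL-35, was the only member well expressed at rest. WT libraries held 13.6, 12.3 and 10.5 CPM with vehicle and 79.0, 78.9 and 78.2 CPM with LPS. KO libraries held 10.2 to 22.5 CPM with vehicle (median 12.4) and 69.3 to 114 CPM with LPS (median 85.4). The vehicle and LPS libraries did not overlap, and KO vehicle replicate 6 was the highest at rest.

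**Figure D1:**
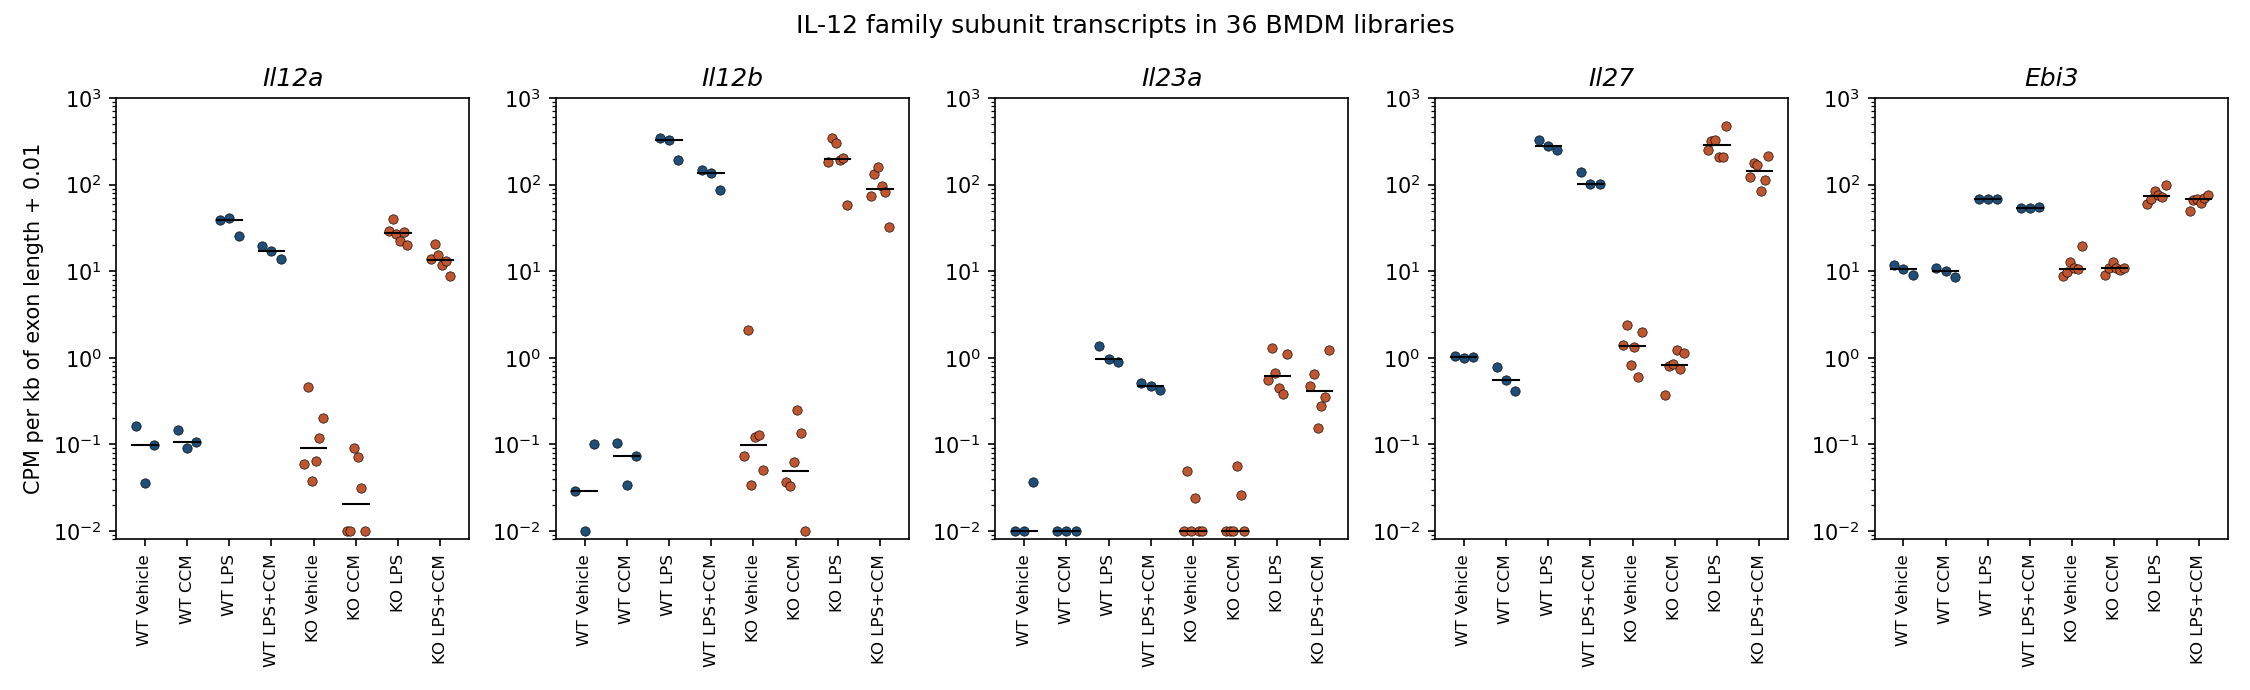
Level of each IL-12 family subunit transcript in every library, in counts scaled to library size (CPM) per kb of gene length on a log scale, with 0.01 added. Bars mark group medians.

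LPS raised 5 of 5 members in WT, where 63% of 14501 tested genes were called, and 5 of 5 in KO, where 47.1% of 13648 were called. Il12a, Il12b and Il23a pass the low-count filter in these comparisons through their LPS libraries, so their calls carry no weight as a tally. Il27 rose with a log2 fold change of 8.13 in WT (edgeR adjusted p = 3.41e-11, 3 of 3 pairs higher) and 7.73 in KO (edgeR adjusted p = 3.87e-09, 6 of 6 pairs higher). Ebi3 rose by 2.70 in WT (edgeR adjusted p = 2.39e-09, 3 of 3 pairs higher) and 2.67 in KO (edgeR adjusted p = 2.26e-07, 6 of 6 pairs higher). The edgeR log2 fold changes of Il12b, Il12a and Il23a were 12.65, 8.54 and 6.36 in WT and 8.97, 7.59 and 5.83 in KO. Bulk RNA cannot tell more RNA per cell from more cells that hold the transcript.

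Summed counts gave a wide range for the genes that start near 0. In WT the LPS level of Il12b was 6577 times the vehicle level (95% counting interval 3192 to 16360, 7 vehicle counts), that of Il12a 376 times (220 to 708, 13 vehicle counts) and that of Il23a 96.1 times (26.2 to 801, 2 vehicle counts). In KO the ratios were 533 (442 to 649, 109 vehicle counts), 208 (147 to 307, 31 vehicle counts) and 71.5 (24 to 350, 3 vehicle counts). These intervals cover counting error only. Without WT vehicle replicate 3 the edgeR log2 fold changes were 14.46 for Il12b and 8.77 for Il23a. Without KO vehicle replicate 2 they were 11.36 for Il12b, 8.43 for Il12a and 6.72 for Il23a. Without all libraries of KO replicate 2 they were 11.19 for Il12b, 8.31 for Il12a, 6.50 for Il23a, 7.94 for Il27 and 2.64 for Ebi3.

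Per kb of gene length, the mean level in WT under LPS was 289 CPM for Il12b and 286 for Il27, which were not separated across libraries, then 68.2 for Ebi3, 35.1 for Il12a and 1.06 for Il23a, each above the next in every library. The same scale gave 299 for Il27, 213 for Il12b, 76.6 for Ebi3, 27.8 for Il12a and 0.732 for Il23a in KO under LPS, where neither Il27 and Il12b nor Il12b and Ebi3 were separated across libraries. In KO LPS replicate 6, Ebi3 (98.7) lay above Il12b (58.3). In vehicle the order began with Ebi3, at 10.5 in WT and 12 in KO, followed by Il27 at 1.02 and 1.41. In WT, LPS thus turned a profile of Ebi3 with little partner transcript into one led by Il12b and Il27.

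CCM lowered all 5 members in LPS-treated WT BMDMs, where 11.9% of 13579 tested genes were called (1057 lower and 564 higher). The LPS libraries are those compared with vehicle above. Il12b held 679, 645 and 379 CPM with LPS and 289, 271 and 171 CPM with LPS+CCM. Il12a held 66.0, 69.2 and 43.9 CPM against 32.8, 29.4 and 23.6 CPM. Every LPS+CCM library lay below every LPS library for both. The log2 fold change of Il12b was -1.22 (SE 0.224, edgeR adjusted p = 0.00615, 3 of 3 pairs lower), a mean of 43.2% of the LPS level. That of Il12a was -1.06 (SE 0.167, edgeR adjusted p = 0.00248, 3 of 3 pairs lower), 48.7% of the LPS level.

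Il23a fell from 3.01, 2.16 and 1.96 CPM in WT with LPS to 1.13, 1.05 and 0.937 CPM with LPS+CCM, without overlap. Its log2 fold change was -1.18 (SE 0.271, edgeR adjusted p = 0.0188, 3 of 3 pairs lower), 44.6% of the LPS level. The call rested on 18 to 51 counts a library and was lost without WT LPS replicate 1 (edgeR adjusted p = 0.0598, log2 fold change -0.99, 3 of 3 pairs lower with all libraries in), without WT LPS+CCM replicate 2 (0.0687, -1.19) and without WT LPS+CCM replicate 3 (0.0652, -1.11).

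By the mean, Il27 fell furthest in WT, from 333, 287 and 257 CPM with LPS to 143, 104 and 102 CPM with LPS+CCM. It fell furthest in replicates 2 and 3. In replicate 1, Il23a (37.6% of the LPS level) and Il12b (42.6%) fell further than Il27 (42.9%). Differences between members were not tested. Ebi3 fell least, from 79.0, 78.9 and 78.2 CPM to 62.7, 62.3 and 62.8 CPM. The LPS and LPS+CCM libraries were fully apart for both genes. Il27 had a log2 fold change of -1.33 (SE 0.128, edgeR adjusted p = 0.000134, 3 of 3 pairs lower) and kept 39.7% of its LPS level. Ebi3 had a log2 fold change of -0.33 (SE 0.048, edgeR adjusted p = 0.00159, 3 of 3 pairs lower) and kept 79.6%. Il27 ranked 39 from the lowest log2 fold change of 13579 genes, Il12b 59, Il23a 70, Il12a 99 and Ebi3 1541.

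Markers of other cell types were read beside these changes. Fibroblast markers in WT summed to 458 to 635 CPM with LPS and 544 to 661 CPM with LPS+CCM. Dendritic cell markers, with Ccr7 the most abundant, summed to 11.6 to 13.6 CPM in WT with LPS and 7.32 to 10.5 CPM with LPS+CCM, without overlap, and averaged 13.4 and 11.1 CPM in KO, with overlap. Neutrophil markers in WT summed to 367 to 406 CPM and 305 to 369 CPM. Macrophage markers in WT summed to 15755 to 16396 CPM and 16510 to 16797 CPM. In KO, fibroblast markers summed to 435 to 1449 CPM and 285 to 1196 CPM, and neutrophil markers to 308 to 976 CPM and 302 to 947 CPM. From LPS to LPS+CCM, fibroblast markers went from 458 to 1196 CPM in KO replicate 2 and from 1449 to 622 CPM in KO replicate 5. KO replicate 5 also went from 6410 to 10186 CPM in Lyz2 and from 7.71 to 4.53 CPM in Arntl.

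The WT result depended on how spread between replicates was estimated. When all 36 libraries shared 1 fit, 0 of the 5 members were called in WT, with edgeR adjusted p of 0.138 for Il27, 0.533 for Il12a and 1 for the others, although the log2 fold changes were between -0.33 and -1.33 as before and 3 of 3 pairs fell. That fit pools the spread of WT and KO libraries, and for this treatment pair the biological coefficient of variation was 0.315 in KO against 0.0780 in WT. DESeq2 called 5 of 5. Over all 13 alternatives the adjusted p of edgeR, DESeq2 or voom ran from 1.46e-109 to 0.138 for Il27, with log2 fold changes of -1.50 to -1.22. It ran from 1.39e-40 to 0.533 for Il12a (-1.24 to -0.93) and 8.03e-109 to 1 for Il12b (-1.44 to -1.02). For Il23a it ran from 0.00216 to 1 (-1.30 to -0.99) and for Ebi3 from 2.86e-05 to 1 (-0.33 to -0.25). With all libraries kept, 3 of 3 pairs were lower for each member. The smallest of these p values cannot be taken to measure spread among 3 libraries a group. For Il27 the adjusted p was 9.51e-10 with DESeq2 and 3.77e-12 by edgeR with the replicate block.

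**Figure D2:**
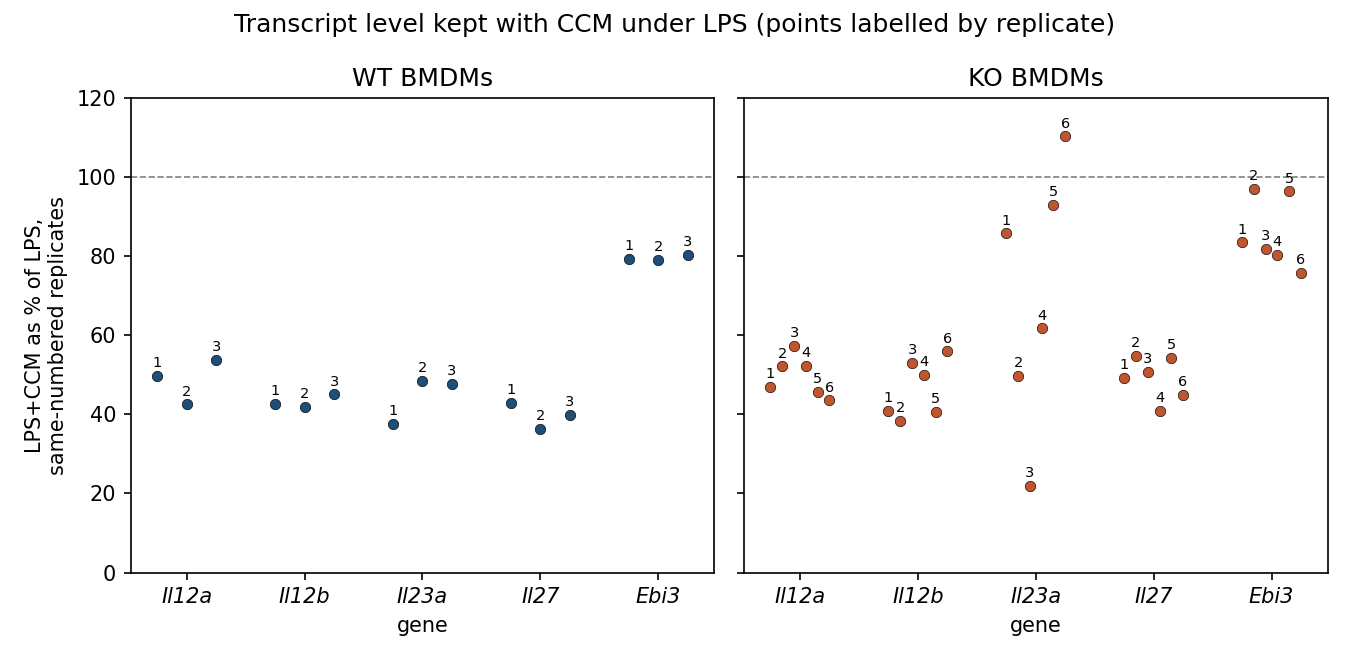
Transcript level with LPS+CCM as a percentage of the level with LPS alone, for same-numbered replicates of WT and KO BMDMs. Numbers give the replicate and the dashed line marks no change.

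In KO BMDMs spread between libraries was wider over all genes (biological coefficient of variation 0.315, WT 0.0780). No member was called by edgeR with CCM under LPS. Il12b held 115 to 672 CPM with LPS (median 390) and 64.2 to 313 CPM with LPS+CCM (median 176). Il12a held 34.2 to 67.4 CPM (median 46.9) and 14.9 to 35.2 CPM (median 22.9). For both genes the groups overlapped, and replicate 6 was the lowest library in each group. All 6 same-numbered pairs fell, to a mean of 46.5% for Il12b and 49.7% for Il12a.

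Il23a in KO held 0.838 to 2.88 CPM with LPS (median 1.35) and 0.328 to 2.72 CPM with LPS+CCM (median 0.909), with wide overlap. It fell in 5 of 6 pairs, to between 22% and 92.9%, and rose to 110% in replicate 6. Il27 held 210 to 489 CPM (median 291) and 85.8 to 220 CPM (median 148), and fell in 6 of 6 pairs to a mean of 49.1%. Ebi3 held 69.3 to 114 CPM (median 85.4) and 57.8 to 86.3 CPM (median 78.2), and fell in 6 of 6 pairs to a mean of 85.8%. The groups overlapped for each of these genes.

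By edgeR, 0 of 5 members were called in KO, where 0.112% of 13386 tested genes were called, although 3 members had unadjusted p below 0.05 and DESeq2 called 2 and voom 3. The log2 fold change was -1.17 for Il12b (SE 0.400, edgeR adjusted p = 0.391, 6 of 6 pairs lower), -1.02 for Il12a (SE 0.204, edgeR adjusted p = 0.0810, 6 of 6 lower) and -0.54 for Il23a (SE 0.473, edgeR adjusted p = 0.848, 5 of 6 lower). It was -1.05 for Il27 (SE 0.263, edgeR adjusted p = 0.156, 6 of 6 lower) and -0.25 for Ebi3 (SE 0.143, edgeR adjusted p = 0.730, 6 of 6 lower). With replicate number as a block, edgeR called 3 members, Il12a and Il12b at adjusted p = 0.000452 and Il27 at 0.000359, each lower in 6 of 6 pairs, with log2 fold changes of -1.03, -1.14 and -1.05. Over the 21 alternatives adjusted p ran from 0.000452 to 0.211 for Il12a, 0.000452 to 0.997 for Il12b and 0.000359 to 0.667 for Il27. Without KO LPS replicate 6, Il12a was called (log2 fold change -1.10, edgeR adjusted p = 0.0447, lower in each of the 6 pairs when all were kept).

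KO replicate 6 stood apart from the other 5 KO replicates. Its neutrophil marker sum was 903 CPM after vehicle (others up to 732), 912 after CCM (507), 976 after LPS (522) and 947 after LPS+CCM (691). With LPS it held the lowest Il12b, 115 CPM beside 359 to 672, and the highest Il27, 489 CPM beside 210 to 337. Leaving out all libraries of replicate 6, an alternative added after the data were seen, gave 3 of 5 members called under LPS with CCM in KO. These were Il12a (log2 fold change -0.98, edgeR adjusted p = 0.0197), Il12b (-1.17, 0.0345) and Il27 (-0.99, 0.0397), each lower in 5 of 5 pairs. Without replicate 2 edgeR called 0 members, with adjusted p from 0.194 to 0.997. The log2 fold changes were then -1.04 for Il12a (SE 0.178), -1.09 for Il12b (SE 0.440) and -1.09 for Il27 (SE 0.303). Those of Il23a and Ebi3 were -0.37 (SE 0.529) and -0.29 (SE 0.165).

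The change with CCM under LPS was not shown to differ between WT and KO for any member. The edgeR interaction of genotype with CCM called 0 of 5 members and 0% of 14546 genes, with 72 genes at unadjusted p below 0.05 and 0 genes called by DESeq2 or voom. Interaction log2 values, positive where KO fell less, were 0.07 for Il12b (SE 0.622), 0.05 for Il12a (SE 0.331), 0.67 for Il23a (SE 0.709), 0.29 for Il27 (SE 0.401) and 0.09 for Ebi3 (SE 0.206). With replicate number as a block, the values were 0.09 for Il12b (SE 0.133), 0.03 for Il12a (SE 0.127), 0.57 for Il23a (SE 0.447), 0.30 for Il27 (SE 0.120) and 0.10 for Ebi3 (SE 0.112), again with 0 of 5 called by edgeR. Those smaller errors hold if same-numbered libraries are pairs, which the KO libraries under LPS did not show in every pair. Without KO replicate 2 the interaction was 0.15 for Il12b (SE 0.635), 0.04 for Il12a (SE 0.280), 0.84 for Il23a (SE 0.734), 0.26 for Il27 (SE 0.435) and 0.06 for Ebi3 (SE 0.224), with 0 of 5 called by edgeR. Over the 27 alternatives the interaction stayed positive for Il27 (0.14 to 0.48), Il23a (0.19 to 0.91) and Ebi3 (0.03 to 0.18). It changed sign in 6 alternatives each for Il12a and Il12b. In all 27 of them 0 members were called. A dependence of the CCM effect on BMAL1 was not shown.

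**Figure D3:**
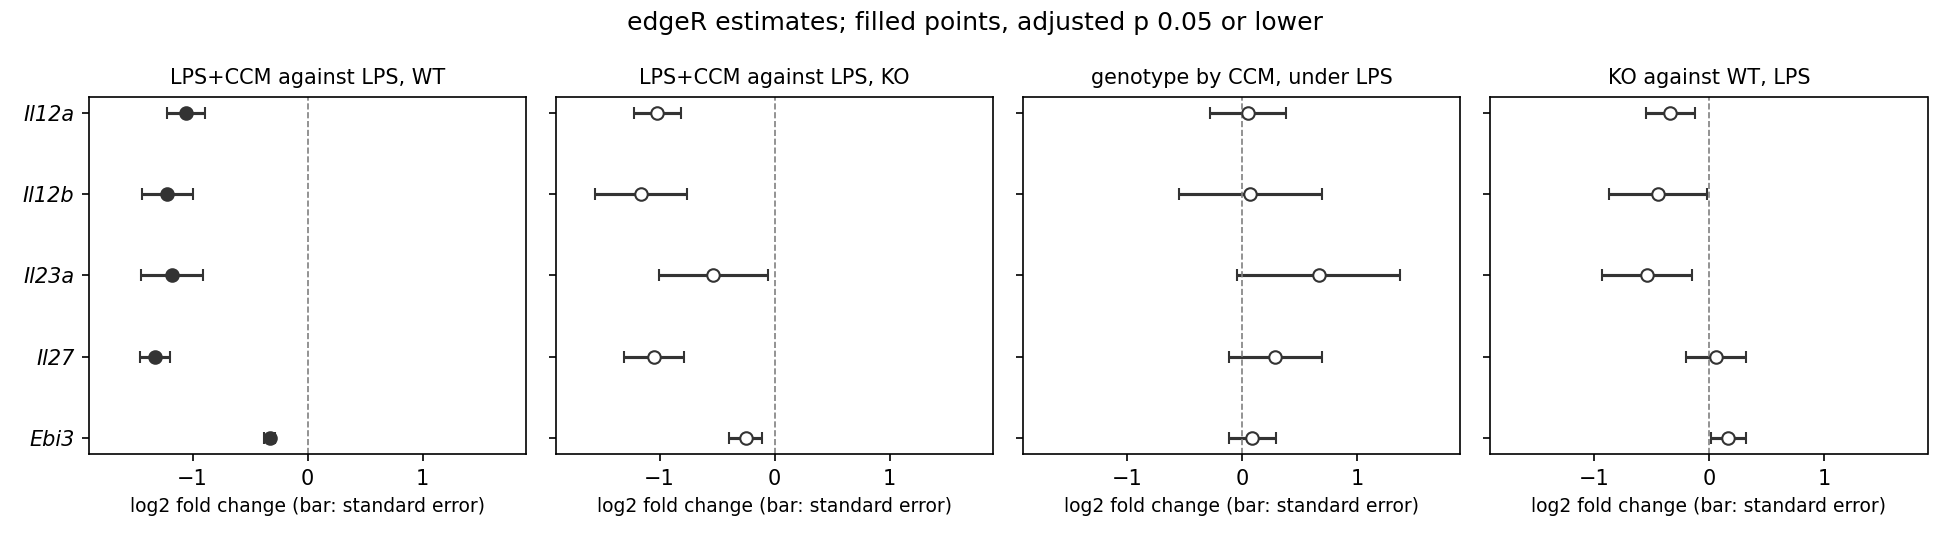
Log2 fold change of each member with its standard error, for LPS+CCM against LPS within each genotype, for the interaction of genotype with CCM under LPS, and for KO against WT under LPS. Filled points have an edgeR adjusted p of 0.05 or lower.

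Pairing of subunits was described by ratios of CPM per kb within each library. Ebi3 per Il27 was 0.210, 0.244 and 0.269 in WT with LPS and 0.389, 0.529 and 0.542 with LPS+CCM, higher in 3 of 3 pairs and without overlap. The log2 difference was 1.01, with an exact permutation p of 0.1, the smallest that 3 against 3 libraries can give (adjusted p = 0.3). In KO the ratio was 0.206 to 0.368 with LPS and 0.348 to 0.724 with LPS+CCM, higher in 6 of 6 pairs with slight overlap. The KO log2 difference was 0.81 (exact permutation p = 0.00433, adjusted p = 0.0260 over 6 ratio tests, two-sided, 6 of 6 pairs higher).

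The KO call for this ratio was lost in 9 of 12 fits without a single library, among them the fit without KO LPS+CCM replicate 4 (difference 0.68, exact permutation adjusted p = 0.0779, 6 of 6 pairs higher when all were kept). Over these 12 fits the adjusted p ran from 0.0260 to 0.0779. Under LPS with CCM, then, Il27 was lower relative to its partner Ebi3 in every same-numbered pair. This shift was not called in WT, and its call in KO was not stable. It was not tested without all libraries of KO replicate 2. The p28 transcript was still the more abundant of the pair in every LPS-treated library.

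In every LPS-treated library the p40 transcript was more abundant per kb than its partners. Il12b per Il12a averaged 8.12 in WT with LPS and 7.23 with LPS+CCM, and 6.89 and 6.40 in KO. Il12b per Il23a averaged 266 and 257 in WT, and 279 and 203 in KO. KO replicate 6 had the lowest value of both ratios with LPS, 2.90 and 52.6. By exact permutation none of these 4 ratios was called (adjusted p of 0.8 to 0.9), with log2 differences of -0.17, -0.05, -0.11 and -0.46 and 3 of 3, 2 of 3, 5 of 6 and 5 of 6 pairs lower.

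**Figure D4:**
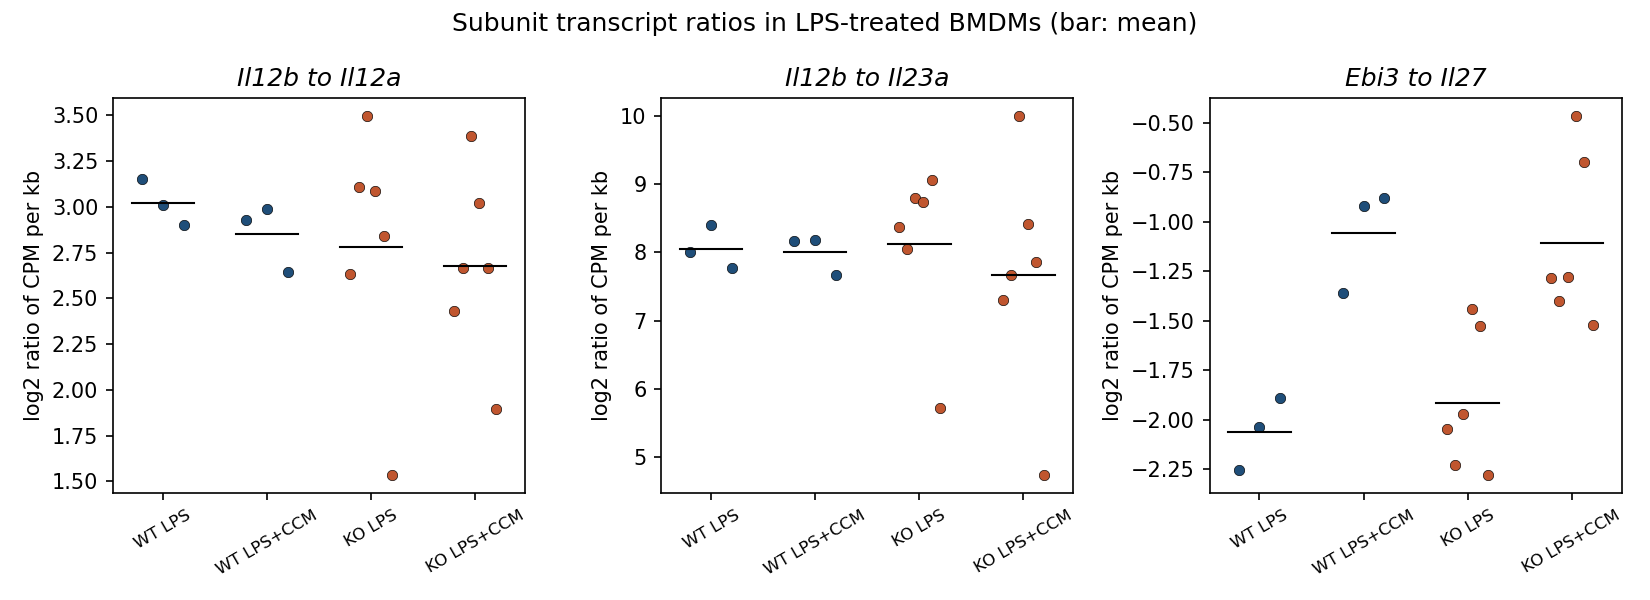
Ratios of subunit transcripts in each LPS-treated library, as log2 of CPM per kb over CPM per kb. Bars mark group means.

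CCM alone, without LPS, left the members low. Il27 held 1.07, 1.02 and 1.04 CPM in WT with vehicle and 0.780, 0.554 and 0.411 CPM with CCM, the 3 CCM libraries below the 3 vehicle libraries. In KO it held 0.602 to 2.45 CPM (median 1.38) and 0.366 to 1.25 CPM (median 0.838), with overlap. Ebi3 held 12.4, 11.5 and 9.96 CPM in WT with CCM and 10.4 to 14.8 CPM (median 12.6) in KO with CCM, overlapping vehicle in both. The log2 fold change of Il27 was -0.86 in WT (edgeR adjusted p = 0.429, 3 of 3 pairs lower) and -0.73 in KO (edgeR adjusted p = 1, 4 of 6 pairs lower). That of Ebi3 was -0.12 in WT (3 of 3 pairs lower) and -0.15 in KO, where 2 of 6 pairs were lower and 4 higher. Without KO replicate 2 the KO values were -0.49 for Il27 (SE 0.403) and -0.20 for Ebi3 (SE 0.211), with 0 members called by edgeR. Il12a, Il12b and Il23a held too few counts to test.

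Of the 2 members tested without LPS, edgeR called 0 in WT, where 0.057% of 14024 genes were called, and 0 in KO, where 0% of 13799 were called (333 genes at unadjusted p below 0.05). Among members, Il27 in WT alone had unadjusted p below 0.05, and DESeq2 and voom also called 0 of 2 in each genotype. Across all genes, the alternatives called 0 to 377 in WT (DESeq2 241, voom 11) and 0 to 429 in KO (DESeq2 42, voom 299, replicate block 429), and 0 of the 2 members in any of them.

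KO and WT BMDMs were not told apart by any member tested, 5 with LPS and 2 with vehicle. With LPS the log2 difference of KO from WT was -0.44 for Il12b (SE 0.425), -0.34 for Il12a (SE 0.214), -0.54 for Il23a (SE 0.390), 0.06 for Il27 (SE 0.257) and 0.17 for Ebi3 (SE 0.149). The WT values lay within the KO range for Il27 and Ebi3, and KO libraries overlapped WT for the other 3. By edgeR 0 of 5 were called with LPS, and 0% of 13794 genes (105 at unadjusted p below 0.05, with DESeq2 calling 2 and voom 1). With vehicle the difference was 0.47 for Il27 (SE 0.412) and 0.20 for Ebi3 (SE 0.251), with 0 of 2 called and 0% of 14385 genes (118 at unadjusted p below 0.05, with DESeq2 calling 1 and voom 0). No member had unadjusted p below 0.05 in either comparison, and DESeq2 and voom called 0 members. Without KO replicate 2 the differences with LPS were -0.62 for Il12b (SE 0.422), -0.46 for Il12a (SE 0.187), -0.78 for Il23a (SE 0.359), 0.04 for Il27 (SE 0.281) and 0.20 for Ebi3 (SE 0.158), and with vehicle 0.26 for Il27 (SE 0.384) and 0.26 for Ebi3 (SE 0.261), with 0 members called by edgeR.

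Whether CCM acts differently with LPS than without it was asked for the 2 members countable at rest. The interaction of LPS with CCM was -0.47 for Il27 (SE 0.422) and -0.22 for Ebi3 (SE 0.124) in WT, with 0 of 2 called while 2.09% of 14747 genes were. It was -0.30 (SE 0.454) and -0.09 (SE 0.232) in KO, with 0 of 2 called and 0.00685% of 14588 genes. Without KO replicate 2 the KO values were -0.58 for Il27 (SE 0.504) and -0.07 for Ebi3 (SE 0.272), with 0 members called by edgeR. A difference between genotypes in the response to LPS was not shown, at -0.38 for Il27 (SE 0.480) and -0.01 for Ebi3 (SE 0.292), with 0 of 2 called and 0% of 15093 genes by edgeR (112 at unadjusted p below 0.05, and 0 genes by DESeq2 and voom). Without KO replicate 2 this difference was -0.16 for Il27 (SE 0.472) and -0.03 for Ebi3 (SE 0.310), with 0 members called by edgeR. With all libraries kept, Il27 and Ebi3 had no unadjusted p below 0.05 in these 3 tests, and DESeq2 and voom called 0 of 2. Il12b, whose vehicle level is near 0, had an interaction of genotype with LPS of -3.66 (SE 1.63), where 92 of the 109 KO vehicle counts lay in replicate 2. Il12a had -0.92 (SE 0.779) and Il23a -0.47 (SE 1.55), and none of these 3 members was called. They pass the low-count filter through their LPS libraries, so these values carry no weight as tests. The interactions share libraries with the comparisons above.

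Among the receptor chains, Il12rb1, shared by the IL-12 and IL-23 receptors, rose with LPS in WT (log2 fold change 2.09, edgeR adjusted p = 7.32e-05) and fell with CCM under LPS in WT (-1.21, edgeR adjusted p = 0.00541), in 3 of 3 pairs each. In KO it rose by 1.65 and then fell by 1.08, the fall without a call (edgeR adjusted p = 0.0916). Il23r went from 0, 0 and 1 counts in the WT vehicle libraries to 33, 31 and 51 with LPS. Il6st, the signal chain of the IL-27 receptor, fell (-1.04 and -0.98), and Il27ra and Il12rb2 were not called. Of the 5 receptor genes, CCM under LPS lowered 1 in WT, where 7.78% of all genes were called lower (median log2 fold change -0.67, all genes 0.01), and 0 in KO (-0.52, all genes 0.00).

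Kinase and STAT genes downstream of these receptors were read as a list of Jak1, Jak2, Tyk2, Stat3 and Stat4. LPS raised 4 of these 5 in WT, where 30.6% of all genes were called higher (median 1.44, all genes -0.05), and 4 of 5 in KO, where 22.4% were (1.38, all genes -0.05), with Jak2 rising most (3.59 and 3.51) and Stat4 not called. CCM under LPS lowered 3 of the 5 in WT, beside 7.78% of all genes, namely Jak2 (-0.23), Tyk2 (-0.32) and Stat3 (-0.30), with a median of -0.30. In KO 0 of 5 were called by edgeR, with a median of -0.30.

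Among 11 transcription factors that activate these cytokine genes, LPS raised 9 in WT (median 1.73, beside 30.6% of all genes higher) and 9 in KO (1.68, beside 22.4%), including Nfkbiz (3.98 and 3.95), Irf1 (3.26 and 3.27) and Nfkb1 (2.65 and 2.60). Irf8 and Irf3 were not called in either. CCM under LPS lowered 4 of the 11 in WT, beside 7.78% of all genes, namely Irf1 (-0.82), Rel (-0.40), Nfkbiz (-0.36) and Nfkb1 (-0.29), around a median of -0.13. In KO the same 4 genes had -0.67, -0.49, -0.42 and -0.42, and 0 of 11 were called by edgeR.

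Of 5 genes that restrain the family, LPS raised 4 and lowered 1 in WT, where 63% of all genes were called, and raised 3 and lowered 1 in KO, where 47.1% were. It raised Il10 (3.11 in WT and 3.22 in KO), Bcl3 (2.61 and 2.63) and Maf (1 and 0.93) and lowered Atf3 (-0.61 and -0.64), and Nfil3 was called in WT alone (0.50 and 0.22). CCM under LPS lowered Il10 in WT (-0.74, edgeR adjusted p = 0.00169, the only call among 5, beside 7.78% of all genes lower), with -0.50 and no call in KO. Whether Il10 bears on the fall of the IL-12 family was not tested.

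Of 5 LPS-sensing genes, CCM under LPS lowered 1 in WT, beside 7.78% of all genes. Myd88 was lower with CCM in WT (-0.35, edgeR adjusted p = 0.000465), while Tlr4 (0.06), Cd14 (0.02), Ly96 (-0.07) and Ticam1 (0.00) were not called. In KO 0 of 5 were called by edgeR.

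Other inflammatory cytokines fell alongside the IL-12 family. In WT, CCM under LPS lowered 6 of 6, beside 7.78% of all genes, namely Il15 (-1.18), Il6 (-0.90), Il18 (-0.79), Tnf (-0.69), Il1a (-0.69) and Il1b (-0.48), with a median of -0.74 beside 0.01 for all genes. Whether the IL-12 family fell more than these genes was not tested. In KO 1 of 6 was called, beside 0.112% of all genes, Il15 (-0.90, edgeR adjusted p = 0.0407), with a median of -0.54.

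KO vehicle replicate 2 stood above the other KO vehicle libraries in Il12b and several other cytokines. It held 92 counts of Il12b (4.09 CPM, the others 0.0466 to 0.232), with 24 CPM of Il1b (others 1.54 to 4.86), 8.54 of Il1a (1.09 to 2.43) and 3.07 of Il6 (0.161 to 0.606). Its Tnf level was 32.6 CPM (21.5 to 31.7) and its macrophage marker sum 17479 CPM (11236 to 13422). Il15 (9.74 CPM, others 7.71 to 11.1) and Il18 (4.4 CPM, others 3.90 to 7.80) lay within the range of the others. The macrophage marker sum of this replicate, and its Lyz2, lay within the WT range with vehicle and CCM. Both lay above every WT library with LPS and LPS+CCM, and above the other KO replicates in all 4 treatments. The cause was not tested.

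Genes that overlap a member on the genome were read to see whether shared bases could carry the signal. Il27 shares 103 exonic bases with Apobr on the other strand, and Apobr changed by -0.19 with LPS in WT and 0.07 with CCM under LPS. Ebi3 overlaps the antisense gene Gm16712 over 2252 bases, 270 of them exonic. Gm16712 rose with LPS in WT (3.40) and was not called with CCM under LPS (-0.27), close to the Ebi3 values of 2.70 and -0.33. It held 184, 208 and 231 counts in the WT LPS libraries, where Ebi3 held 1338, 1828 and 1949. Since it is not known whether reads were counted by strand, the 2 genes cannot be told apart in the shared bases. How much of the Ebi3 count lay in those bases was not tested.

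Across the 18 LPS-treated libraries, which share genotype and CCM differences, Il12a tracked Il12b (r = 0.885) and Il27 tracked Ebi3 (r = 0.740), and Il12b did not track Ebi3 (r = 0.0385). The other partners, Il12b with Il23a and Il12a with Ebi3, had r = 0.138 and 0.216, while Il27 had 0.698 with Il23a and 0.661 with Il12a, which are not its partners. The nearest gene in those libraries was Il1a for Il12a (r = 0.946), Shisa3 for Il12b (0.965), Cdkn1a for Il27 (0.980), Lta for Ebi3 (0.893) and Dpep3 for Il23a (0.850). The values are descriptive.

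Transcripts alone were measured, so secreted IL-12, IL-23, IL-27 and IL-35 are not known from these data, and a single time of 6 h does not tell a lower peak from a shifted one.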

How the data were processed

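Poly-A RNA of BMDMs was sequenced in 36 libraries. The deposited counts are raw reads per gene, which the authors made with fastp, HISAT2 2.0.5 and featureCounts 1.5.0-p3 on mm10, per the submitters' notes; whether reads were assigned by strand is not given there. The deposited gene lengths were used only for levels per kb. Every per-sample column of the table was used and 0 were set aside. Gene positions matched GENCODE M21 for 53585 of 54495 genes found there.

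Genes named Il12a, Il12b, Il23a, Il27 or Ebi3 were taken by gene name. These genes and the gene lists were chosen with earlier results of these data known, and the C/EBP motif was chosen after the promoters had been read.

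Libraries held 13469262 to 28288923 counts (median 19951421), so that 1 count is near 0.05 CPM. Among the 54532 genes, 23675 had no count in any library. No 2 libraries of a group were copies (lowest chi-square per degree of freedom 4.34 over 72 pairs). Levels are CPM with TMM factors over all 36 libraries.

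Each comparison was fitted in R 4.3.3 with edgeR 4.0.16 (filterByExpr with a minimum count of 10, TMM, quasi-likelihood F test, two-sided), and p was adjusted by Benjamini–Hochberg over all tested genes with a threshold of 0.05. Standard errors are the absolute log2 fold change over the square root of F. Subunit ratios were tested by exact permutation, two-sided, with 0.01 added to levels per kb, and adjusted over 6 tests. Correlations used log2 CPM with a prior count of 2. The code was tested on simulated data.

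Alternatives were DESeq2 1.42.0, RLE scaling, library totals alone, no filter, replicate number as a block, voom of limma 3.58.1 with sample quality weights, a joint fit of the 36 libraries, and each library left out in turn. For the ratios, 0.1 was added in place of 0.01, and signs were flipped over pairs. Leaving out all libraries of KO replicate 6 or of KO replicate 2 was added after the data were seen. Same-numbered libraries were checked for pairing once, by the correlation of residuals. Every same-numbered pair stood above 0.1 for CCM under LPS in WT (0.122 to 0.283), LPS in KO (0.245 to 0.762) and CCM alone in KO (0.259 to 0.795), and not for CCM under LPS in KO (-0.056 to 0.719), LPS in WT (0.085 to 0.172) or CCM alone in WT (0.075 to 0.384). Pair counts are therefore given as description, and the block is an alternative.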

Additional observations from a re-analysis of the deposited data

Results flagged for a closer look

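In 26 groups of 6 values, 5 held a library whose gap to its nearest neighbour was wide for the range of the group. How often chance gives such a gap was not measured for these data, some of which are groups of a few counts. With vehicle, KO replicate 2 held 4.09 CPM of Il12b (others 0.0466 to 0.232) and 0.0890 CPM of Il23a (others 0 to 0.0311), the latter from 2 counts. Ebi3 in KO vehicle replicate 6 was 22.5 CPM (others 10.2 to 14.6). Il23a in KO replicate 4 with CCM was 0.104 CPM (others 0 to 0.0356), again from 2 counts. The ratio of Il12b to Il23a in KO replicate 3 with LPS+CCM was 1022 (others 26.7 to 342), with 6 counts of Il23a.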

How the results depend on the processing

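With 3 WT and 6 KO libraries a treatment and more spread in KO, calls in both genotypes turned on the fit. For CCM under LPS in WT, 5 members were called, against 0 with all 36 libraries in 1 fit and 4 to 5 in leave-one-out fits. For CCM under LPS in KO, 0 were called, against 2 with DESeq2, 3 with the replicate block, 3 with voom, 2 with all 36 libraries in 1 fit, 3 without KO replicate 6 in all treatments, and 0 to 1 in leave-one-out fits. The log2 difference of Ebi3 to Il27 in KO was 0.68 to 0.90 in leave-one-out fits. Flipping signs over pairs keeps the value of 0.81, and its exact p of 0.0313, the smallest that 6 pairs allow, cannot be called after adjustment over 6 tests, so that test does not bear on the call.

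Small differences changed sign. Ebi3 for CCM alone in KO was 0.0638 with voom, 0.0334 without KO replicate 6 in all treatments and -0.22 to 0.0481 in leave-one-out fits. Ebi3 for KO against WT with vehicle was -0.0138 with voom and -0.0309 with the block. In that comparison the block matched WT and KO libraries of different mice by replicate number alone, so its value carries no weight. Il27 for KO against WT with LPS was -0.0047 with library totals, -0.19 with voom, -0.12 without KO replicate 6 in all treatments and -0.12 to 0.17 in leave-one-out fits. The interaction of genotype with LPS for Ebi3 was 0.0118 with library totals, 0.0203 with no filter, 0.0102 with the block, 0.0868 with voom, 0.0663 without KO replicate 6 in all treatments and -0.10 to 0.18 in leave-one-out fits. The interaction of LPS with CCM in KO for Ebi3 was -0.28 to 0.0007 in leave-one-out fits. The interaction of genotype with CCM under LPS was -0.0035 for Il12a with library totals, and in leave-one-out fits -0.0879 to 0.23 for Il12a and -0.14 to 0.29 for Il12b. In leave-one-out tests the ratio of Il12b to Il12a in KO was -0.36 to 0.0509, and that of Il12b to Il23a was -0.94 to 0.12 in KO and -0.20 to 0.12 in WT.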

Other observations

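The number of genes called moved widely with the model in both genotypes. For CCM under LPS in KO, 15 genes were called by edgeR, and the alternatives gave 0 to 777, among them 200 by DESeq2, 768 by voom with quality weights and 777 by edgeR with the replicate block. In WT 1621 were called, and the alternatives gave 17 to 3220, among them 1558 by DESeq2, 1909 by voom, 3220 with the block and 17 with all 36 libraries in 1 fit.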
